A study of Callosobruchus maculatus with 24 samples.

Results

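Of 29812 genes counted in the seed beetle Callosobruchus maculatus, 51 were expressed in the abdomen of both sexes and far lower in the head and thorax. They were chosen from the measured levels, given as CPM (the counts of a gene per 1000000 counts of its library). A gene entered when its median over the 6 abdomen libraries of a sex was at least 5 CPM in females and in males, was at least 8 times the head and thorax median of that sex, and gave a female/male ratio above 0.25 and below 4. Of 8108 genes past the minimum level in both sexes, 89 passed the fold in females and 169 in males, 62 passed it in both, and the sex ratio removed 5 genes high in females and 6 high in males. The mirror rule, with the body parts exchanged, chose 168 genes of the head and thorax.

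RNA was sequenced from abdomens and from combined heads and thoraces of virgin females, mated females, virgin males and mated males, 3 libraries in each of 8 groups and 24 in all. Every library came from beetles of the South India strain. The sources used here do not say how beetles were mated, how old they were or how many went into a library. As the labels do not tie libraries to separate cultures, each p-value covers the spread between these samples alone, and that spread may be technical.

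The insect abdomen houses the midgut, which digests food and takes up nutrients, the Malpighian tubules, which excrete waste and balance salt and water, most of the fat body, which stores energy and makes blood proteins, and the reproductive organs. The thorax is filled mostly by flight and leg muscle, and the head by the brain, eyes and antennae. Adult seed beetles can reproduce without feeding, from reserves laid down by the larva inside the seed. The files do not pair the assembly IDs with gene names, so no function or tissue is assigned to any gene here, and a drop in cell number cannot be told apart from a drop in RNA per cell.

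Library totals ran from 7805440 to 10171662 counts. No pair of libraries within a group came close enough in counts to be 1 library deposited again. Some head and thorax libraries stood apart in genes limited to the abdomen of a sex (at least 5 CPM in that abdomen, 8 times its head and thorax and 16 times the other sex). The 170 female-limited genes summed to 6298 CPM in virgin female replicate 3 and to between 638 and 865 CPM in the other female heads and thoraces. The 890 male-limited genes summed to 8571 CPM in virgin male replicate 1 and to 2866 CPM in mated male replicate 1. In the other male heads and thoraces they summed to between 1077 and 1581 CPM. Female heads and thoraces held a similar level of these male-limited genes, between 1025 and 1437 CPM. The female-limited genes summed to between 233 and 282 CPM in male heads and thoraces.

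Levels among the 51 genes differed widely. Medians ran from 5.04 to 581 CPM in female abdomens, with 21.3 CPM in the middle, and from 5.08 to 981 CPM in male abdomens, with 39.4 CPM in the middle. Only 8 genes were above 100 CPM in both sexes. CPM is not divided by transcript length, which the sources used here do not give, so this order is one of counts and not of molecules per cell. The plot of all members by library shows how few of them carried most of the counts.

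**Figure D1:**
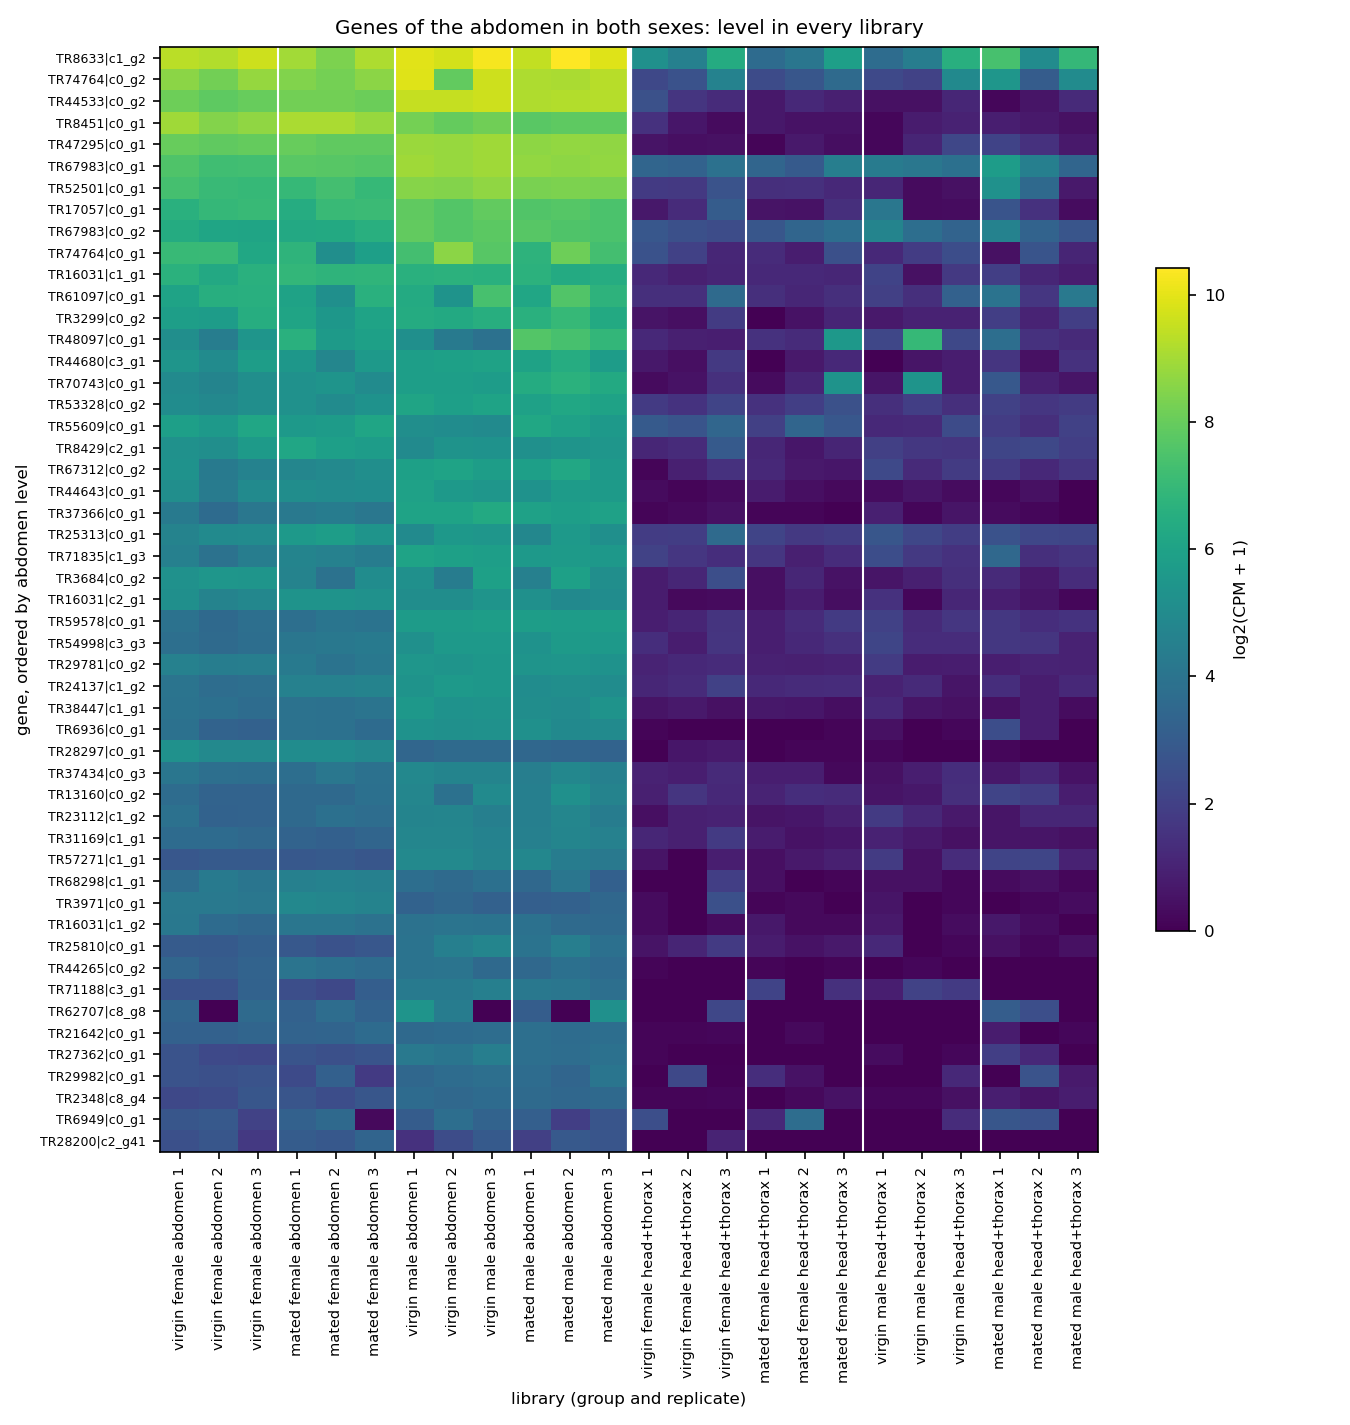
Level of each of the 51 genes (rows, ordered by abdomen CPM) in each of the 24 libraries (columns, 3 per group), as log2(CPM + 1); white lines separate the 8 groups, abdomens to the left. In most rows abdomen columns are brighter than head and thorax columns, though TR8633|c1_g2 is at 11.6 to 164 CPM in heads and thoraces. TR48097|c0_g1 and TR70743|c0_g1 are among the rows with isolated bright cells in the head and thorax. TR62707|c8_g8 and TR6949|c0_g1 have isolated dark cells in the abdomen.

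TR8633|c1_g2 took the most counts. It stood at 649, 602 and 799.8 CPM in virgin and 497, 330.5 and 559.9 CPM in mated female abdomens, and at 1002, 871 and 1243 CPM in virgin and 708, 1368 and 959 CPM in mated male abdomens. The virgin female libraries all lay above the mated ones, while the male groups overlapped. The difference in females did not pass the test described below (log2 -0.44, SE 0.256, edgeR adjusted p = 0.295). TR74764|c0_g2, TR44533|c0_g2, TR8451|c0_g1, TR47295|c0_g1, TR67983|c0_g1, TR52501|c0_g1 and TR17057|c0_g1 followed. These 8 genes held 64.0% to 70.8% of the members' counts in every abdomen library.

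Together the 51 genes took 0.315% to 0.371% of counts in female abdomens and 0.528% to 0.672% in male abdomens. In CPM the sum was 3515 ± 316 in virgin and 3528 ± 194 in mated females, and 6223 ± 620 in virgin and 5749 ± 574 in mated males (SD, n = 3 each). Virgin and mated sums overlapped in both sexes. The sum of the 43 genes outside the 8 most abundant was 1124 ± 84.5 CPM in virgin and 1220 ± 106 CPM in mated females, and 1955 ± 71.6 CPM in virgin and 2011 ± 246 CPM in mated males (SD, n = 3 each).

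The sex ratio was bounded by the choice of the genes and is given as a description. In 41 of the 51 genes the male abdomen was higher and in 10 the female abdomen was. The male level was at least 2-fold higher in 22 genes and the female level in 2, and the median male/female ratio was 1.83. With TMM scaling (trimmed mean of M values, a library scaling less driven by a few abundant genes) 45 genes were higher in males. The shares over all genes were not determined, so the lean to males is not read as particular to the members. TR57271|c1_g1 was the most male-leaning, with medians of 6.51 CPM in females and 25.9 CPM in males. TR28297|c0_g1 was the most female-leaning, at 27.8 to 37.4 CPM in the 6 female and 8.96 to 11.3 CPM in the 6 male libraries.

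The genes next to each limit, inside and outside, are given as a description. TR29982|c0_g1 was inside the minimum level at 5.04 CPM in females and TR60382|c0_g1 outside at 4.89 CPM. TR13160|c0_g2 was inside the fold at 8.03 and TR1169|c3_g9 outside at 7.70, both in females. At the lower sex ratio TR57271|c1_g1 was inside at 0.251 and TR71139|c9_g4 outside at 0.214. At the upper ratio TR28297|c0_g1 was inside at 3.11 and TR41259|c0_g1 outside at 4.33. Values on either side were close at every limit but the upper sex ratio, where no member came near it.

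The choice of the genes set the separation of the body parts for the medians. Separation by library was thus largely built in and is given as a description. In 46 of the 51 genes the lowest abdomen library was above the highest head and thorax library, and the share over all genes was not determined. The 5 exceptions were TR48097|c0_g1, TR70743|c0_g1, TR62707|c8_g8, TR29982|c0_g1 and TR6949|c0_g1. Head and thorax medians were under 1 CPM for 30 genes in females and 27 in males, and 0 for 5 genes in each sex. Among genes with a median above 0, the middle fold of abdomen over head and thorax was 38.3 in females and 36.8 in males.

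TR8633|c1_g2 had the highest head and thorax median in both sexes, and TR67983|c0_g1 was among the next (9.56 CPM in females and 17.7 CPM in males, where TR74764|c0_g2 stood at 5.54 and 18.4 CPM). TR8633|c1_g2 read 37.0, 22.1 and 82.9 CPM in virgin female, 11.6, 16.1 and 57.7 CPM in mated female, 11.8, 20.5 and 93.5 CPM in virgin male and 164, 31.3 and 120.3 CPM in mated male heads and thoraces. The spread within each group was wide, and all groups overlapped. TR67983|c0_g1 ran from 6.73 to 21.1 CPM in females and from 9.68 to 52.4 CPM in males, with its highest value in mated male replicate 1.

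In female abdomens, 12 of the 51 genes rose after mating and none fell. Mated and virgin libraries were compared with edgeR's quasi-likelihood test on the 12 abdomen libraries, with TMM scaling and p-values adjusted over all 14563 genes tested (threshold 0.05). All 51 members passed the low-count filter, since the choice of the genes required that level. The genes tested include many below the members' minimum level. The share called among genes past that level was not determined for females, males or the interaction. The 12 genes were 23.5% of members, where 14.5% of all genes were called, 8.18% higher and 6.28% lower. Their log2 fold changes ran from 0.30 to 0.91, and none reached 2-fold. Of all 51 members 40 had a positive change (78.4%, against 49.5% of all genes), with a median log2 fold change of 0.33 against 0.00 over all genes. A similar lean was seen outside the members: of the 118 head and thorax genes of the mirror rule that passed the same filter, 74.6% were positive with a median of 0.30, although 3 were called (2.54%). An unadjusted p under 0.05 was reached by 24 members, but the share of all genes at that level was not determined, so no excess is read from it.

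TR24137|c1_g2 had the largest change of the 12. It stood at 15.2, 12.2 and 13.2 CPM in virgin and at 23.1, 22.7 and 24.05 CPM in mated female abdomens. Every mated library was above every virgin one (log2 fold change 0.91, SE 0.0851, edgeR adjusted p = 0.000523), and the call held in each of the 14 alternatives run. TR25313|c0_g1 went from 24.3, 30.6 and 32.0 CPM to 49.3, 54.5 and 40.5 CPM, again without overlap (log2 fold change 0.85, SE 0.216, edgeR adjusted p = 0.0259). Its call ended without mated replicate 1 or 2 or virgin replicate 1 or 2 (adjusted p 0.0679 to 0.0912; 0.00117 to 0.12 over all alternatives).

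Among the most abundant members, TR67983|c0_g1, TR44533|c0_g2 and TR8451|c0_g1 rose. TR67983|c0_g1 went from 185, 149.9 and 155 CPM to 212, 206 and 196 CPM, without overlap (log2 fold change 0.45, SE 0.0735, edgeR adjusted p = 0.00352). TR44533|c0_g2 went from 278, 228 and 255 CPM to 294.5, 297 and 268 CPM, with overlap (log2 fold change 0.30, SE 0.0699, edgeR adjusted p = 0.0172). TR8451|c0_g1 went from 482, 361 and 411 CPM to 544, 544.5 and 452 CPM, also with overlap (log2 fold change 0.42, SE 0.112, edgeR adjusted p = 0.0309). The calls of these last 2 genes ended without mated replicate 1 or 2 or virgin replicate 2 (adjusted p 0.0616 to 0.117), and that of TR8451|c0_g1 also without virgin replicate 3 (0.0858). With library size only in place of TMM they ended as well (0.121 and 0.0863).

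The other 7 genes that rose were TR3971|c0_g1, TR44265|c0_g2, TR8429|c2_g1, TR54998|c3_g3, TR16031|c2_g1, TR16031|c1_g1 and TR59578|c0_g1. TR3971|c0_g1 went from 17.6, 17.4 and 16.7 CPM to 27.9, 26.1 and 23.9 CPM (log2 fold change 0.71, SE 0.11, edgeR adjusted p = 0.00274). It is named, though the rule for named genes did not select it, because only its call and those of TR24137|c1_g2 and TR67983|c0_g1 held in each of the 6 fits that left out 1 female abdomen library. TR44265|c0_g2 went from 9.92, 7.30 and 8.88 CPM to 15.0, 13.3 and 11.8 CPM (log2 fold change 0.74, SE 0.171, edgeR adjusted p = 0.0165). Its call ended without mated replicate 1 (0.0629) or virgin replicate 2 (0.0705).

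The number of genes called rested on single libraries: it was 5 without mated female replicate 1 (9.80% of members against 8.71% of all genes), 6 without mated replicate 2 (11.8% against 8.12%) and 3 without virgin replicate 2 (5.88% against 7.48%). The members' share of calls was thus close to or below that of all genes without mated replicate 1 or virgin replicate 2. Scaling moved the split of calls. With library size only, 8 members rose and 2 fell, 19.6% of members where 20.2% of all genes were called, and the median of all genes moved to -0.11. Relative to that median the members stood 0.32 higher on the log2 scale, against 0.33 with TMM.

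Male abdomens showed a smaller number of calls, in both directions. In the same fit 3 of the 51 genes rose and 2 fell after mating, 9.80% of members where 2.77% of all genes were called, 1.48% higher and 1.30% lower. Of the 51 members 37 had a negative change and 14 a positive one (27.5% positive, against 39.4% of all genes). The median log2 fold change was -0.16 against -0.064 over all genes. An unadjusted p under 0.05 was reached by 13 members, again without a share of all genes to set it against.

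TR48097|c0_g1 had the largest change of any member in either sex. It stood at 35.2, 18.2 and 13.8 CPM in virgin and at 199, 166 and 119.7 CPM in mated male abdomens, without overlap (log2 fold change 2.81, SE 0.396, edgeR adjusted p = 0.00785). The call held in each fit that left out a library and ended only in the fit of all 24 libraries (0.214). In females it went from 34.2, 20.2 and 41.6 CPM to 96.8, 50.7 and 59.96 CPM, also without overlap, but did not pass (log2 1.23, SE 0.382, edgeR adjusted p = 0.0571). The sexes were not shown to differ in this gene (interaction log2 -1.58, SE 0.544, edgeR adjusted p = 0.11).

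TR70743|c0_g1 was also higher in mated males, at 85.0, 101 and 79.4 CPM against 56.8, 55.9 and 53.4 CPM (log2 fold change 0.64, SE 0.125, edgeR adjusted p = 0.024). It was described after its values were seen. Its call was lost in each fit without a male abdomen library other than mated replicate 3. In those fits TR48097|c0_g1 was the only member called higher. TR55609|c0_g1 rose from 34.6, 32.7 and 30.9 CPM to 73.5, 61.2 and 46.9 CPM (log2 fold change 0.85, SE 0.196, edgeR adjusted p = 0.0479). This call ended in 8 of 14 alternatives, among them each fit without a male abdomen library other than mated replicate 3 (0.0944 to 0.154). In females TR55609|c0_g1 overlapped between virgin (47.6 to 70.1 CPM) and mated (47.8 to 69.8 CPM) libraries.

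The 2 genes that fell in males were genes that rose in females. TR24137|c1_g2 went from 39.7, 47.6 and 44.1 CPM to 32.3, 34.0 and 32.9 CPM in male abdomens (log2 fold change -0.44, SE 0.0776, edgeR adjusted p = 0.0164). TR44533|c0_g2 went from 730.5, 729 and 792 CPM to 572, 596 and 614 CPM (log2 fold change -0.37, SE 0.069, edgeR adjusted p = 0.0198). Mated males lay below virgin males in every library of both genes. The fall of TR24137|c1_g2 was not called without mated male replicate 1 or 3 or virgin replicate 2 or 3 (0.05001 to 0.0601), and that of TR44533|c0_g2 without mated replicate 1 or 2 or virgin replicate 1 or 3 (0.0511 to 0.0747). With any 1 male library but mated replicate 3 left out, 1 or 2 members were called in place of 5 (1.96% to 3.92% of members, against 1.16% to 1.98% of all genes).

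**Figure D2:**
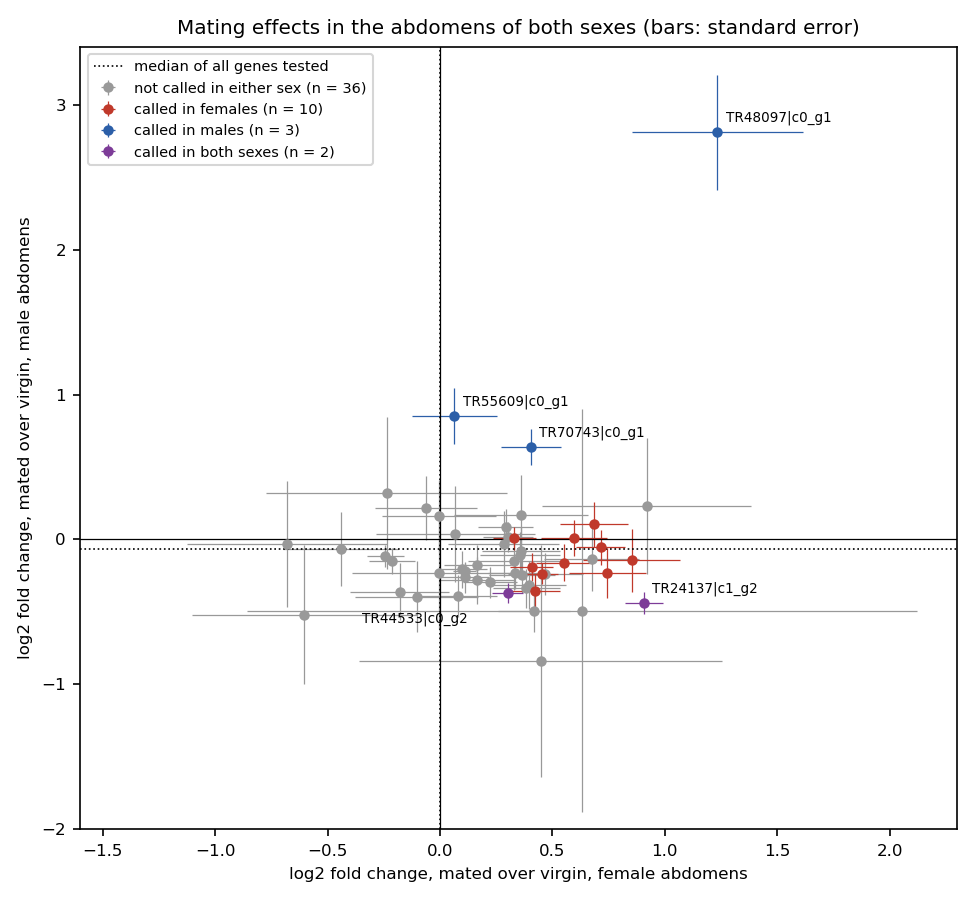
Log2 fold change of mated over virgin beetles in female (horizontal) and male (vertical) abdomens for the 51 genes, with standard errors; colours mark edgeR calls at an adjusted p of 0.05, and dotted lines the median of all genes. The 12 genes called in females lie between 0.30 and 0.91 on the horizontal axis, and TR48097|c0_g1 stands alone at 2.81 on the vertical axis.

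**Figure D3:**
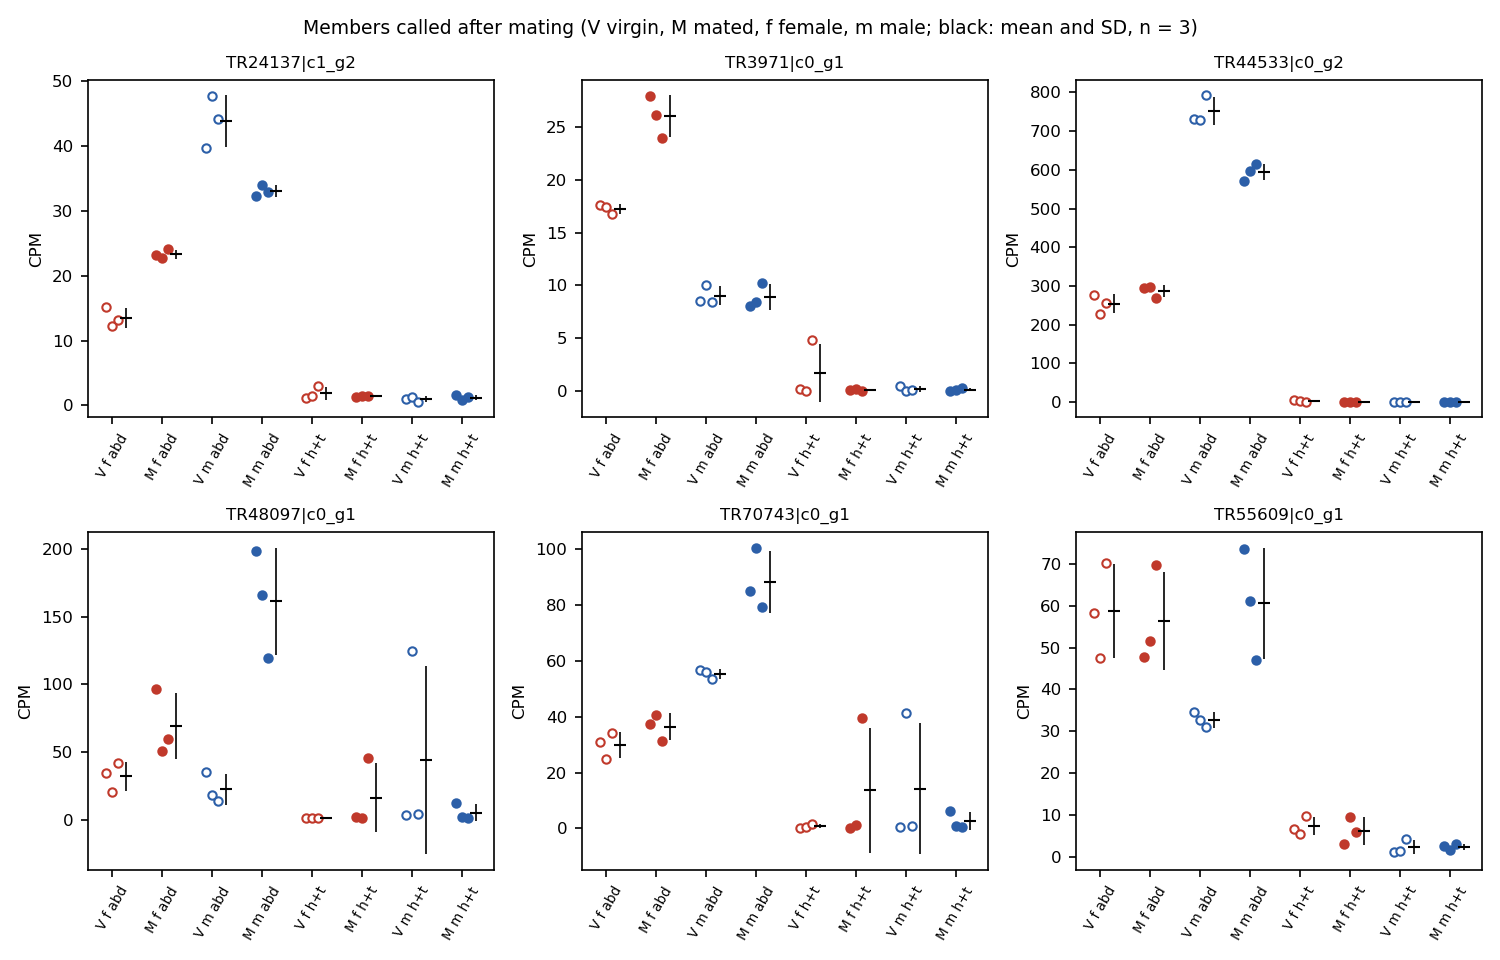
CPM per library of 6 genes called after mating in at least 1 sex (open circles virgin, filled circles mated, red female, blue male), with the mean and SD of each group of 3 in black. TR24137|c1_g2 and TR44533|c0_g2 rise in female and fall in male abdomens, and TR48097|c0_g1 and TR70743|c0_g1 each have 1 high library among mated female and 1 among virgin male heads and thoraces.

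Mating effects in the sexes were compared by the interaction of sex and mating, computed as the female minus the male mating effect. It was called for 10 of the 51 genes, 19.6% of members where 8.28% of all genes were called, and all 10 were positive, where 5.23% of all genes were called positive and 3.06% negative. In all 10 the TMM-scaled change was positive in females and negative in males, though in CPM without that scaling the female mean of TR47295|c0_g1 was 244 before and 242 after mating. Values ran from 0.33 to 1.34 on the log2 scale. Over all members the median was 0.44 against 0.071 for all genes. The male abdomen was the higher one in 6 of the 10 and the female abdomen in 4.

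TR24137|c1_g2 had the largest interaction (log2 1.34, SE 0.115, edgeR adjusted p = 0.000962), and its call held in each of 20 alternatives. TR44265|c0_g2 followed at 0.98 (SE 0.241, edgeR adjusted p = 0.0324), and its male groups overlapped, at 14.5, 14.9 and 10.8 CPM before and 10.3, 13.5 and 11.3 CPM after mating. Its interaction call ended in 11 of 20 alternatives (0.00459 to 0.289). The calls of TR24137|c1_g2, TR44533|c0_g2, TR67983|c0_g1 and TR8451|c0_g1 held in each of the 12 fits that left out an abdomen library. With library size only 5 members were called, all positive, 9.80% of members where 8.15% of all genes were called. Without mated female replicate 1 the number was 5 (9.80% against 5.55% of all genes), and without virgin female replicate 2 it was 6 (11.8% against 5.45%).

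Some members share an assembly graph and may share sequence, so that reads could have been split between them. The 51 IDs fell into 48 components, 3 of which held a pair. TR67983|c0_g1 and TR67983|c0_g2 kept a ratio of 1.99 to 2.72 over the 12 abdomen libraries. TR67983|c0_g2 did not pass in females (log2 0.33, SE 0.116, edgeR adjusted p = 0.0849) while its partner did. In the pair TR16031|c1_g1 and TR16031|c1_g2, the first rose in females from 101, 77.9 and 98.3 CPM to 118, 107 and 111 CPM (log2 0.41, SE 0.0958, edgeR adjusted p = 0.0179). TR16031|c1_g2, at 10.10 to 16.8 CPM in virgin and 14.3 to 16.1 CPM in mated females, did not pass (log2 0.40, SE 0.163, edgeR adjusted p = 0.137). The call of TR16031|c1_g1 ended without mated female replicate 1 (0.0656) or virgin female replicate 2 (0.0532).

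The pair TR74764|c0_g1 and TR74764|c0_g2 behaved otherwise. In virgin male abdomens TR74764|c0_g2 stood at 958, 238 and 781 CPM and TR74764|c0_g1 at 158, 393 and 212 CPM. The library lowest in one was the highest in the other. TR74764|c0_g1 thus took 14.2%, 62.2% and 21.3% of the pair's counts in these 3 libraries, and 10.3% to 33.6% in the other abdomens. The summed pair was 913 ± 252 CPM in virgin and 758 ± 88.0 CPM in mated males, and 484 ± 49.6 and 409 ± 66.3 CPM in virgin and mated females (SD, n = 3 each). Neither gene was called after mating in either sex.

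TR74764|c0_g1 was also among the most variable members, with a mean coefficient of variation of 46.1% within abdomen groups. TR61097|c0_g1 had the largest spread of members above 20 CPM in both sexes (46.5%). It stood at 82.5, 40.2 and 168 CPM in virgin and 70.5, 194 and 104.6 CPM in mated male abdomens. TR3684|c0_g2, noticed after its values were seen, followed it closely at 36.4, 19.98 and 60.5 CPM and 22.4, 59.9 and 34.1 CPM in the same libraries. Their ratio stayed between 1.72 and 3.24 over the 12 abdomen libraries. The most even members were TR47295|c0_g1 (4.06%), at 448 to 485 CPM in virgin and 395 to 426 CPM in mated males, and TR67983|c0_g1 (5.69%). The median within-group SD of log2(CPM + 1) was 0.173 for members and 0.107 for the 8108 genes past the minimum level.

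The transcript table lists 1 transcript for 28 of the 51 genes and up to 17 for the others. This share of 54.9% compares with 39.0% of the 8108 genes past the minimum level and 56.0% of the 168 head and thorax genes, and the differences were not tested. Shares of transcripts within a gene were not used to choose the members. The share of each gene's main transcript was compared between female and male abdomens with an exact two-sided permutation test within virgin and within mated libraries (400 assignments, smallest p 0.005), adjusted over 5370 genes. Of 22 members tested 2 were called, where 15.9% of all genes were called.

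TR54998|c3_g3 used different main transcripts in the sexes. Its transcript i8 made up 94.9%, 91.1% and 90.9% of the gene's transcript counts in virgin and 88.2%, 93.4% and 87.9% in mated females. In virgin males it made up 40.3%, 30.3% and 38.8% and in mated males 39.6%, 36.3% and 30.4%, and transcript i11 held most of the rest (60.4 ± 5.93%, SD, n = 6). All 6 female libraries were above all 6 male ones (exact permutation p = 0.005, adjusted p = 0.0315). TR53328|c0_g2 was called in the other direction, with its transcript i2 at 72.5% to 85.9% in females and 96.1% to 99.8% in males (exact permutation p = 0.005, adjusted p = 0.0315). Transcript counts of these genes summed to slightly less than the gene counts, by at most 14.2 and 4.26 counts in a library, and neither was tested when such genes were left out.

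**Figure D4:**
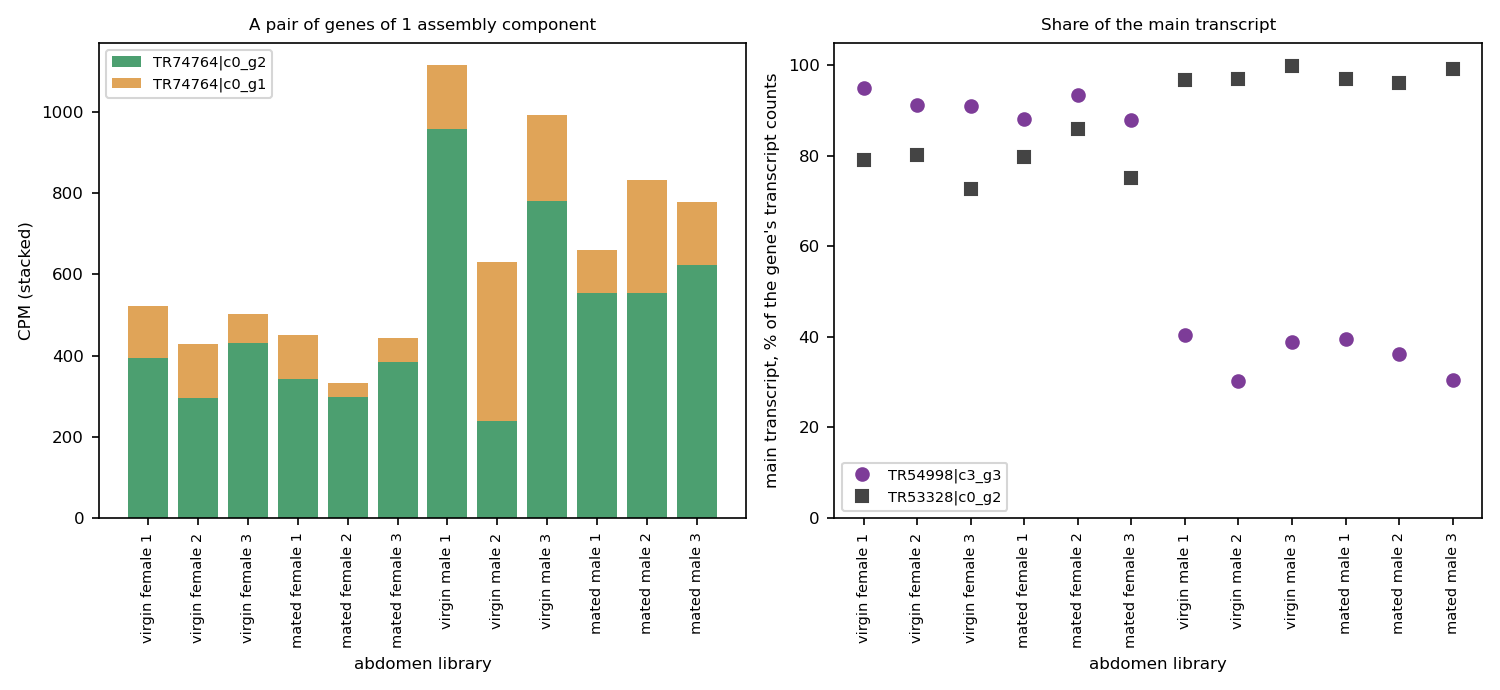
Left: CPM of TR74764|c0_g1 and TR74764|c0_g2, stacked, in the 12 abdomen libraries, with TR74764|c0_g1 at 62.2% of the pair in virgin male replicate 2. Right: share of the main transcript of TR54998|c3_g3 and TR53328|c0_g2 in percent of the gene's transcript counts; female and male libraries do not overlap for either gene.

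In the head and thorax no member was called after mating in either sex, where 0.935% of all genes were called in females (0.621% higher, 0.314% lower) and 0.0766% in males (0.0690% higher, 0.00766% lower). Only 32 of the 51 members passed the low-count filter of this fit over 13051 genes, so low counts limit this comparison. By edgeR an unadjusted p under 0.05 was reached by 2 members in each sex, and the share of all genes at that level was not determined. DESeq2 called 0 members in females and 1 in males, where it called 3.85% and 1.45% of all genes. The median log2 fold change of the 32 was -0.34 in females and 0.22 in males. Without virgin female replicate 3, which was high in female-limited abdominal genes, the female median over 34 members was 0.076. Without virgin male replicate 1, the highest in male-limited genes, the male median over 34 members was 0.34, and leaving out both of these libraries gave 0.51 over 32 members. Without any other single male library it lay between 0.0031 (mated replicate 1) and 0.43 (virgin replicate 3).

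The members' summed level varied between head and thorax libraries of a group by up to 3.27-fold. It was 111, 86.7 and 232 CPM in virgin females, 71.7, 92.5 and 234 CPM in mated females, 137, 255 and 209.6 CPM in virgin males and 442, 147 and 226 CPM in mated males. Of the 51 members 25 had their highest female head and thorax value in virgin female replicate 3. Among 50 members with a count in males, 17 were highest in virgin male replicate 1 and 16 in mated male replicate 1. These are the 3 libraries in which the sex-limited abdominal genes were highest, but the share of all genes peaking in them was not determined. The members' summed level did not follow the same order. It was lowest among male heads and thoraces in virgin male replicate 1 (137 CPM). In females it was as high in mated replicate 3 (234 CPM) as in virgin replicate 3 (232 CPM). The part of abdominal RNA in the members' head and thorax values was not tested.

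**Figure D5:**
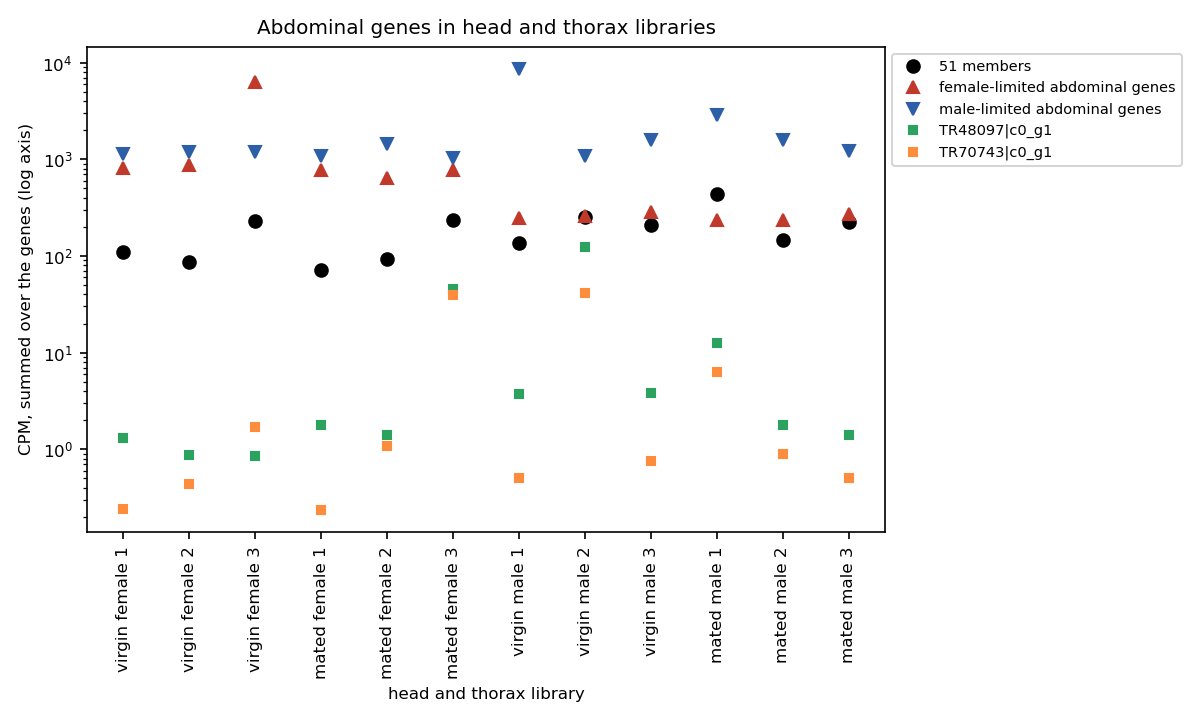
Summed CPM (log axis) of the 51 genes, of 170 female-limited and of 890 male-limited abdominal genes, and CPM of TR48097|c0_g1 and TR70743|c0_g1, in the 12 head and thorax libraries. Female-limited genes reach 6298 CPM in virgin female replicate 3, male-limited genes 8571 CPM in virgin male replicate 1, and the single genes peak in mated female replicate 3 and virgin male replicate 2.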

How the data were processed

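Estimated counts per gene and per transcript, without normalisation, were made and deposited by the authors. Both lanes of a library share 1 column, and 14.1% of gene values have decimals. The submitters' processing notes name FastQC 0.11.2 and Bowtie 0.12.6, besides cutadapt 1.2.1 and Trimmomatic 0.3. Reference, counting program and use of strand were not given in the sources used here, so how reads of near-identical, overlapping or antisense genes were split is unknown for every gene. For 10 members the sum of transcripts missed the gene count by over 0.5 counts, and for TR23112|c1_g2 they held little of it, so its transcript shares were not used.

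The members and lists were chosen with earlier results of these data known. Levels are CPM on column totals. Counts were rounded and tested with edgeR 4.0.16 in R 4.3.3 (TMM, filterByExpr by group, robust quasi-likelihood test, 1 mean per group, 12 libraries of a body part together), adjusted by Benjamini and Hochberg's method over all genes. The SE was taken as the size of the log2 fold change over the root of the F statistic. Body part and sex differences set by the choice of the genes were not tested. The tests were checked on simulated data.

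Genes named are the 8 with most counts, up to 2 called per direction and comparison (at least 3 counts in every library and, for mating, no overlap), neighbours of each limit, the 2 highest in the head and thorax, members of components holding a pair, the 2 most and 2 least variable above 20 CPM, and the 2 with the largest called transcript difference; others are said to be chosen after their values were seen. Alternatives were size factors of DESeq2 1.42.0, library size only, other filters, DESeq2, no robust estimation, all 24 libraries, a replicate block, other membership limits and each library left out.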

Additional observations from a re-analysis of the deposited data

Results flagged for a closer look

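The mating effect was called different between the sexes, by a test of the difference itself, in 10 of the 51 genes. These were 19.6% of members, against 8.28% of all genes. Only 4 of these calls held in each of the 12 fits that left out an abdomen library, and with library size only 5 members were called. The interaction in log2 units, female minus male mating effect, was 1.34 for TR24137|c1_g2, 0.98 for TR44265|c0_g2, 0.91 for TR27362|c0_g1 and 0.78 for TR8451|c0_g1. It was 0.77 for TR3971|c0_g1, 0.71 for TR16031|c2_g1, 0.69 for TR67983|c0_g1 and 0.67 for TR44533|c0_g2. It was 0.60 for TR16031|c1_g1 and 0.33 for TR47295|c0_g1.

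TR27362|c0_g1 and TR47295|c0_g1 were called for the interaction without being called in either sex alone. TR27362|c0_g1 went from 4.33 ± 0.922 to 5.31 ± 0.386 CPM after mating in females and from 17.9 ± 2.61 to 13.0 ± 0.643 CPM in males (SD, n = 3 each). Its female level was near the minimum of 5 CPM, and its interaction call did not hold in all 12 fits that left out an abdomen library. TR47295|c0_g1 went from 244 ± 10.4 to 242 ± 10.12 CPM in females and from 464 ± 18.7 to 409 ± 15.5 CPM in males (SD, n = 3 each). The interaction of TR47295|c0_g1 was not called in 5 of 20 alternatives: it was 0.17 with library size only (adjusted p = 0.202), and the call also ended in the fit of all 24 libraries (0.849) and without mated female replicate 1 (0.0534), virgin female replicate 1 (0.125) or virgin female replicate 2 (0.05397). TR16031|c1_g1 and TR16031|c2_g1 share an assembly graph, so reads could have been split between them. Groups of 3 libraries are too small for a test of single outlying samples.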

How the results depend on the processing

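Among the members, the 12 calls in female abdomens, 5 in male abdomens and 10 of the interaction became 1, 0 and 1 in the fit of all 24 libraries, which called 1 member in each sex of the head and thorax in place of 0. There 1.96%, 0% and 1.96% of members were called against 10.8%, 1.95% and 5.64% of all genes, so that members lay below the share of all genes in the abdomen; the cause was not tested. DESeq2 called 18 members in female abdomens (17 higher, 1 lower), 9 in male abdomens (3 higher, 6 lower), 16 for the interaction (15 positive, 1 negative) and 1 in male heads and thoraces, where it called 22.4%, 7.08%, 12.3% and 1.45% of all genes. With library size only the interaction called 5. With a membership fold of 16 (36 genes) the counts were 7 in females, 3 in males, 9 for the interaction and 0 for transcript shares. With a fold of 4 (110 genes) they were 28 (22 higher, 6 lower), 9 (5 and 4) and 25 (21 positive, 4 negative) for females, males and the interaction. With a sex ratio of 0.5 to 2 (27 genes) they were 7, 3 and 6, and 1 for transcript shares. These change with the number of genes entered. In the order given, they were 19.4%, 25.5% and 25.9% of members in females, against 14.5% of all genes. In males they were 8.33%, 8.18% and 11.1%, against 2.77%, and for the interaction 25%, 22.7% and 22.2%, against 8.28%. Transcript shares were called in 0 of 12 members tested with the fold of 16 and 1 of 11 with the narrower sex ratio, against 15.9% of all genes. With genes left out whose transcripts did not sum to the gene count, chosen after seeing the data, 0 transcript shares were called, since both called genes were among them. Leaving out 1 library gave 3 to 12 calls in females, 1 to 4 in males and 5 to 10 for the interaction, with 1 negative call among 8 without virgin male replicate 1. Of all genes 7.48% to 9.85%, 1.16% to 1.98% and 5.08% to 7.18% were called in these fits. The log2 ratio of mated to virgin summed levels, 0.0054 in females and -0.11 in males, was 0.12 and 0.041 without the 8 most abundant members. Membership from TMM-scaled CPM gave 42 genes, of which 40 were shared.

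Pairing of libraries by replicate number was checked within each body part only. Abdomen libraries were not compared with head and thorax libraries of the same number. Deviations from group means correlated across genes by -0.046 to 0.046 between same-numbered abdomen libraries. Between head and thorax libraries the range was -0.070 to 0.126, where 1 of 18 pairs was over 0.1. Little pairing was thus seen within a body part, though groups of 3 libraries cannot exclude a weak one. With a replicate block 13 members were called in females, 4 in males, 13 for the interaction and 0 in either head and thorax comparison. In the abdomen these were 25.5%, 7.84% and 25.5% of members, against 13.0%, 2.03% and 7.39% of all genes. No named call changed direction in any alternative run. Members near 5 CPM and the head and thorax values rest on few counts and are imprecise.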

Other observations

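TR48097|c0_g1 and TR70743|c0_g1 were both called higher in mated than virgin male abdomens, the second only with most male libraries kept in. They were also high together in single head and thorax libraries, which was noticed after their values were seen. In mated female replicate 3 they stood at 45.7 and 39.4 CPM, against at most 1.78 and 1.70 CPM in the other 5 female heads and thoraces. In virgin male replicate 2 they stood at 124 and 41.3 CPM, against at most 12.6 and 6.25 CPM in the other 5 male ones. Neither library was among those high in sex-limited abdominal genes, which summed to 767 CPM (female-limited) and 1077 CPM (male-limited) there. All members together, these 2 genes included, summed to 234 CPM in mated female replicate 3, the highest of the female heads and thoraces. They summed to 255 CPM in virgin male replicate 2, below mated male replicate 1 (442 CPM). The source of the peaks was not tested.

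TR62707|c8_g8 was either present or absent by library. It was listed at 0 in virgin female replicate 2, virgin male replicate 3 and mated male replicate 2 and stood at 7.42 to 40.5 CPM in the other 9 abdomens. Among heads and thoraces it had counts in 3 libraries, at 3.62, 7.35 and 4.64 CPM. Its mating effect could not be measured with any precision (log2 0.63, SE 1.49 in females).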
